A study of Mus musculus with 6 samples.

Results

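The microRNAs (miRNAs) miR-221-3p and miR-222-3p are short regulatory RNAs cut from hairpins of a single transcript. Their probes were found by the mouse names mmu-miR-221-3p and mmu-miR-222-3p in the array's spot file, which gave 2 of the 1118 mouse miRNA probes, each printed as 4 spots per array. The RNA came from exosomes, small vesicles shed by cells, in the culture supernatant of purchased mouse endothelial cells. The normal phosphate group received 0.9 mM inorganic phosphate for 48 h and the high phosphate group 3.5 mM for 48 h, with 3 arrays each. All cells grew in F-12k medium with 12% fetal bovine serum, endothelial growth supplement and heparin. The sources used here do not give the strain, the vessel of origin or whether serum vesicles had been removed, nor do they say that the arrays stand for separate cultures. The p-values thus describe how these samples scatter, and that scatter may be technical.

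A miRNA guides a silencing complex to messenger RNAs that pair with its seed, the bases 2 to 8 counted from the 5′ end, and lowers their output. The pair shares a seed and is known for silencing Cdkn1b, which encodes the cell cycle inhibitor p27. It is abundant in human endothelial cells, where it is known to silence the receptor KIT and to restrain migration. In vascular smooth muscle the pair is known to favour proliferation, and it has been linked to the calcification of those cells, the setting that the series addresses with raised phosphate.

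The mature sequences are shown first because the shared seed, in capitals, is what defines the pair. They are written 5′ to 3′ from RefSeq, build GRCm38.p6, and all of them lie on the minus strand.
miR-221-3p: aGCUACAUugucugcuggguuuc
miR-222-3p: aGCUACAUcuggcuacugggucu
miR-1928: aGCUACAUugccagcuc
Of 1738 mature mouse miRNA entries in the RefSeq table, 3 carried this seed, namely the pair and miR-1928. The pair is identical over the first 8 bases, and 11 of 23 positions hold the same base when the sequences are set end to end, or 19 bases when gaps are allowed. miR-221-3p and miR-1928 share the first 10 bases. The array's probe sequences were not used here, and binding of one miRNA to the probe of another was not tested.

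The hairpins are given for the layout of the locus, with the mature arms listed in RefSeq in capitals.
Mir222: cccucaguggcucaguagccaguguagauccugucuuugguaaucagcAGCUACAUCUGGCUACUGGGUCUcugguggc
Mir221: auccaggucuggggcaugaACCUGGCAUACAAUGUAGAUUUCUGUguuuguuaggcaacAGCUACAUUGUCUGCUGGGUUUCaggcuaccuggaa
On GRCm38.p6, Mir222 occupies chrX:19146893-19146971 and Mir221 chrX:19146294-19146388, on the minus strand, so Mir222 comes first in the direction of transcription. The hairpins are separated by 504 bases. The mature miR-222-3p lies at chrX:19146901-19146923 and miR-221-3p at chrX:19146307-19146329, while miR-1928 lies at chr1:74206562-74206578.

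Signal from miR-221-3p passed the threshold set by foreign probes on most arrays, and that from miR-222-3p on none (0 of 6). Intensities are given as foreground minus local background in the scanner's units, averaged over the 4 spots. The array also carried viral miRNA probes, foreign to the mouse, and a mouse probe was tested if it exceeded their 95th percentile (1627 to 3233 units) on at least 3 of 6 arrays. miR-221-3p exceeded it on 4 arrays, 2 of each group, and was among the 129 probes tested. miR-222-3p has a level but no place in that test. Every array showed both members above the brightest Empty spot, which reached 9 units. The brightest of 7 negative control probes read 689 to 1440 units, and miR-221-3p was above it on 5 arrays and miR-222-3p on 1. That control was the same probe on every array. The next brightest read 60.25 to 159 units, and the median of the 7 was -6.75 to -0.5 units. No spot of miR-222-3p read under 206 units.

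In normal phosphate, miR-221-3p measured 6321, 2501 and 2883 units on arrays 1, 2 and 3. In high phosphate the corresponding arrays gave 923, 2502 and 3053 units. Normal replicate 1 was the brightest and high replicate 1 the dimmest of the 6, a ratio of 6.85, while the other 4 arrays lay close together and mixed the groups. The means were 3902 ± 2104 and 2159 ± 1106 units (SD, n = 3 each).

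For miR-222-3p the normal phosphate arrays measured 1470, 773 and 807 units. The high phosphate arrays measured 391, 705 and 789 units. The same arrays were the extremes, with normal replicate 1 brightest and high replicate 1 dimmest at a ratio of 3.76, and the groups overlapped only through normal replicate 2 and high replicate 3. The means were 1017 ± 393 and 628 ± 210 units (SD, n = 3 each).

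**Figure D1:**
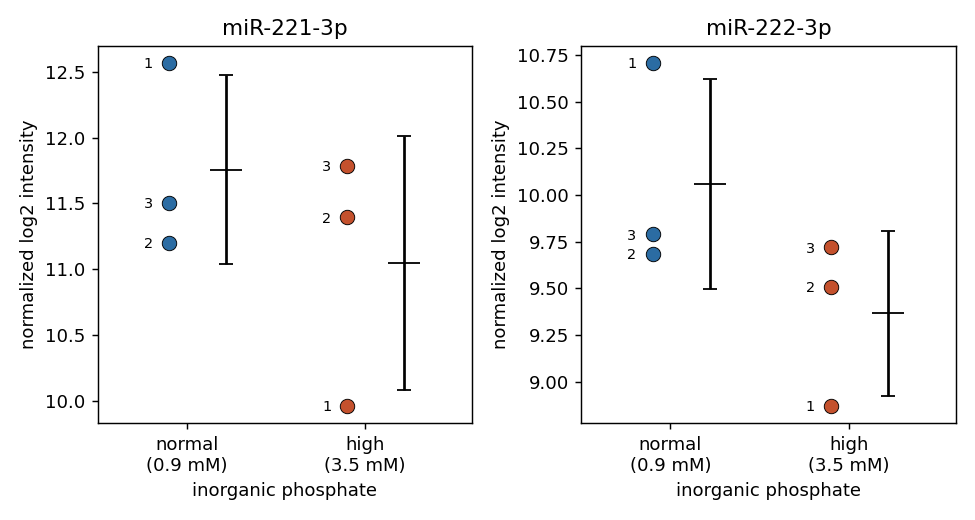
Normalized log2 intensity (y axis) of each member at both phosphate levels (x axis), 1 point per array labelled with its replicate number, with mean and SD bars (n = 3). Replicate 1 is the highest point at normal and the lowest at high phosphate for both miRNAs, and the remaining points of the groups lie side by side.

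Between the phosphate levels neither member differed beyond the spread between arrays. The values below are log2 intensities after background correction and quantile normalization, which gives every array the same distribution of miRNA probe values. On that scale miR-221-3p stood at 11.76 ± 0.72 at normal and 11.05 ± 0.96 at high phosphate (SD, n = 3 each). High minus normal came to -0.71 on the log2 scale (SE 0.54), or 0.611-fold, and the 95% interval of the fold ran from 0.256 to 1.46 (limma, adjusted p = 0.853 over 129 probes by Benjamini-Hochberg). The interval takes in both lower and higher levels, so these arrays settle neither direction nor size.

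For miR-222-3p the normalized log2 level was 10.06 ± 0.56 at normal and 9.37 ± 0.44 at high phosphate (SD, n = 3 each). High minus normal was -0.69 (exact permutation test, 2-sided, p = 0.2). Normal replicate 2 at 9.69 lay just under high replicate 3 at 9.72, which was the only overlap. In a fit of all 1118 mouse probes without the intensity filter, the SE was 0.37 and the fold 0.618, with an interval from 0.322 to 1.18 (limma, adjusted p = 0.776). With 3 against 3 arrays the smallest possible exact p is 0.1.

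These results sit within the background of the whole array. Of 129 tested probes, 0 passed limma after adjustment (0%), and 9 had an unadjusted p under 0.05 (6.98%), 2 of them lower in high phosphate (1.55%). Without limma's moderation of the variance, 0 passed as well. miR-221-3p was not among the 9, with an unadjusted p of 0.225 (limma) that ranked 34th of 129, although only 5 probes had a lower log2 difference. Over all tested probes the median was -0.02, and 67 lay below and 62 above 0. The groups did not overlap for 13 of 129 probes (10.1%), and miR-221-3p was not 1 of them.

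The size of the difference depended on the outlying arrays, more so for miR-221-3p. Without high phosphate replicate 1 the log2 difference of miR-221-3p shrank from -0.71 to -0.17, and without normal phosphate replicate 1 to -0.31. Without high phosphate replicate 3 it widened to -1.10. For miR-222-3p, leaving out normal replicate 1 gave -0.37 and leaving out high replicate 1 gave -0.45, and no other single array moved it by over 1.5 times. Within groups the SD of miR-221-3p was 0.85 on the log2 scale, and 4 of 129 tested probes were more variable, against a median of 0.33. That of miR-222-3p was 0.51, a spread exceeded by 26 of the tested probes.

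Array brightness moved with the groups. Before scaling, the Hy3 dye spots stood at a log2 level of 9.57 ± 0.18 at normal and 8.90 ± 0.15 at high phosphate, and the spike controls at 9.47 ± 0.07 and 8.87 ± 0.22 (SD, n = 3; exact permutation test, 2-sided, p = 0.1 each, the least that this design allows). High replicate 1 had the dimmest spike controls, at 8.62, and normal replicate 1 the brightest, at 9.53. The Hy3 spots had other extremes, with normal replicate 2 brightest at 9.69 and high replicate 3 dimmest at 8.74, while normal replicate 1 at 9.37 was the dimmest normal and high replicate 1 at 9.03 the brightest high array. Scaling to the spike controls reduced the log2 difference to -0.29 for miR-221-3p and -0.08 for miR-222-3p. Scaling to the Hy3 spots gave -0.21 and -0.001. The values given for the pair are thus set against the bulk of the miRNA probes, whose median difference was -0.22 without any scaling.

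**Figure D2:**
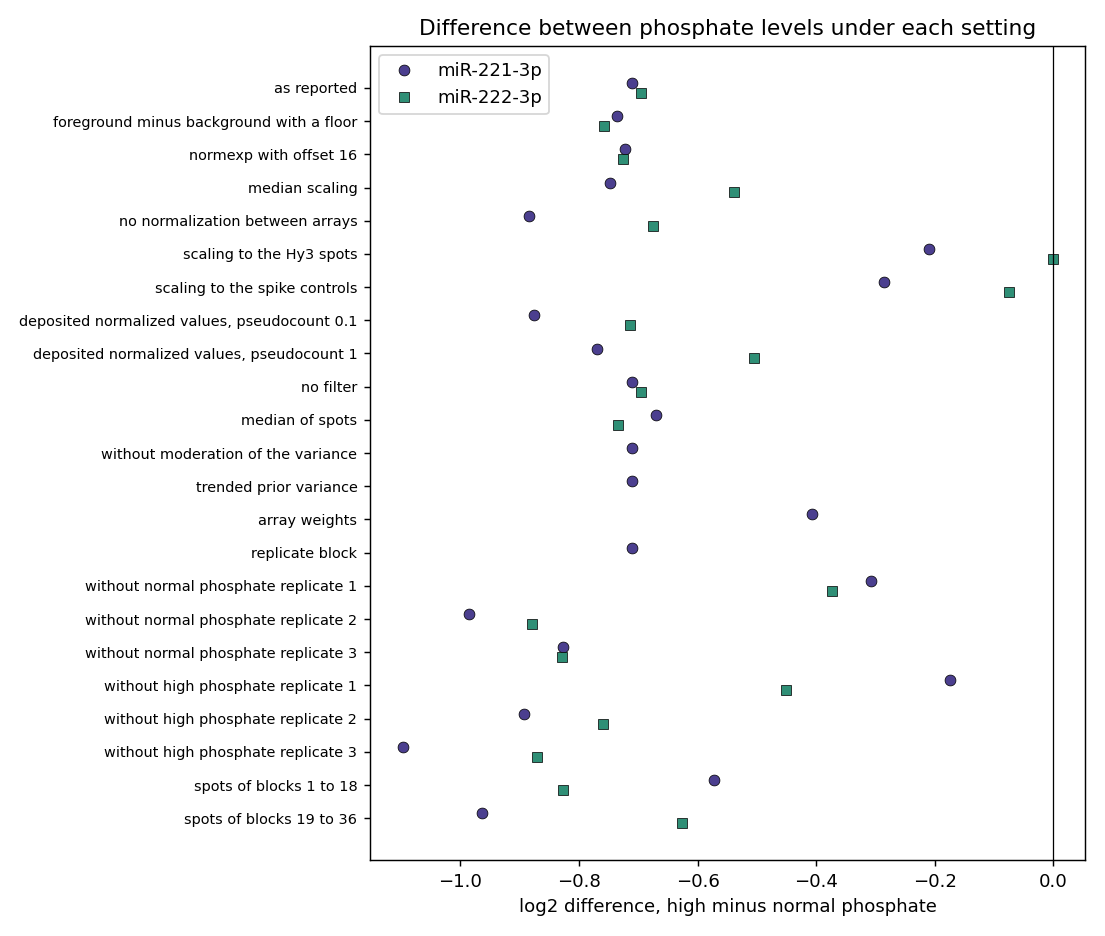
Log2 difference, high minus normal phosphate (x axis), for miR-221-3p (circles) and miR-222-3p (squares) under each processing setting (y axis). Points for miR-221-3p run from -1.10 to -0.17 and those for miR-222-3p from -0.88 to -0.001, and the smallest come from scaling to control spots and from leaving out replicate 1 of either group.

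Across arrays the levels of the members ran in parallel. Over the 6 arrays the normalized log2 levels correlated with Pearson's r = 0.949 (exact permutation p = 0.0347) and Spearman's rho = 0.886 (exact permutation p = 0.0333). Adjusted over the 12 relations computed, these p-values were 0.0833 and 0.133 (Benjamini-Hochberg), so the relation did not pass. With each group's mean removed, r was 0.962. Without normal replicate 1 and high replicate 1, the arrays farthest from the median of miR-221-3p, r fell to 0.32 over 4 arrays. The pooled relation thus rests on those arrays.

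Array brightness before scaling was set against both members, and none of the 6 relations had an adjusted p under 0.05 by Pearson's r or Spearman's rho. The mean log2 signal of the tested probes before scaling correlated with miR-221-3p at r = -0.001 (exact permutation p = 0.999, adjusted 0.999) and rho = 0.086 (exact permutation p = 0.919, adjusted 1). For miR-222-3p it gave r = 0.105 (exact permutation p = 0.793, adjusted 0.865) and rho = 0.657 (exact permutation p = 0.175, adjusted 0.3). Without normal replicate 2 and high replicate 3 these r values were 0.25 and 0.23, and with group means removed they were -0.74 for both members. The Hy3 spots gave r = 0.243 for miR-221-3p (exact permutation p = 0.681, adjusted 0.817) and rho = 0.029 (exact permutation p = 1, adjusted 1). For miR-222-3p they gave r = 0.35 (exact permutation p = 0.517, adjusted 0.689) and rho = 0.6 (exact permutation p = 0.242, adjusted 0.322). With group means removed the Hy3 values turned to r = -0.911 and -0.924, and without normal replicate 2 and high replicate 3 they were 0.49 and 0.50. The spike controls gave r = 0.843 for miR-222-3p (exact permutation p = 0.00972, adjusted 0.05) and rho = 0.943 (exact permutation p = 0.0167, adjusted 0.1). For miR-221-3p the spike controls gave r = 0.786 (exact permutation p = 0.0458, adjusted 0.0917) and rho = 0.6 (exact permutation p = 0.242, adjusted 0.322). After leaving out normal replicate 1 and high replicate 1, those r values were 0.625 and -0.34. Scaling every array to its spike controls left the correlation within the pair at r = 0.967.

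Within an array the log2 difference of miR-221-3p over miR-222-3p varied less than either miRNA. It was 1.86, 1.51 and 1.72 on the normal arrays and 1.09, 1.89 and 2.07 on the high arrays. High replicate 1 was the lowest, and the rest mixed the groups. The SD over all arrays was 0.35 for this difference, against 0.85 for miR-221-3p and 0.59 for miR-222-3p. Within normal phosphate it was 0.17, against 0.72 for miR-221-3p and 0.56 for miR-222-3p. Within high phosphate it was 0.52, against 0.96 and 0.44, so there the difference varied more than miR-222-3p. The group means of 1.70 ± 0.17 and 1.68 ± 0.52 (SD, n = 3) differed by -0.02 (exact permutation, 2-sided, p = 1).

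Several other miRNAs tracked a member of the pair more closely than the members tracked each other. Only miR-26b-5p and the miR-199a-3p/miR-199b-3p probe did so for both members. Likeness was measured as Pearson's r of normalized log2 levels over the 6 arrays, as a description, since all probes were read on the same 6 arrays. Of the 128 other tested probes, 4 correlated with miR-221-3p more strongly than miR-222-3p did, and 8 reached 0.9, while the median was -0.09. The 5 most like it were a joint probe, miR-199a-3p/miR-199b-3p, at r = 0.990, miR-26b-5p at 0.971, miR-676-3p at 0.964, miR-215-5p at 0.957 and miR-30b-5p at 0.944. The most opposite was miR-22-5p at -0.960.

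For miR-222-3p, 3 of 129 tested probes correlated more strongly than miR-221-3p did. They were miR-26b-5p at r = 0.986, the muscle miRNA miR-1a-3p at 0.983 and the miR-199a-3p/miR-199b-3p probe at 0.968. Next came miR-221-3p itself at 0.949 and miR-10a-5p at 0.926, and the most opposite was miR-183-5p at -0.973, a probe with an SD of 0.06 over the arrays and r = 0.208 before scaling. All of the positively matched probes named here were brightest on normal replicate 1 and dimmest on high replicate 1. The miR-199a-3p/miR-199b-3p probe, for example, had normalized log2 levels of 12.55, 11.25 and 11.38 on the normal arrays and 9.60, 11.13 and 11.52 on the high arrays.

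The 4 spots of a probe lie as duplicates within a block in each of 2 areas of the array, blocks 1 to 18 and blocks 19 to 36. miR-221-3p sits in blocks 8 and 26 and miR-222-3p in blocks 11 and 29. Within a block the duplicates share a column, in rows 3 and 13 for miR-221-3p and rows 8 and 18 for miR-222-3p. On some arrays the areas differed by far more than the duplicates within a block. On high replicate 3, miR-221-3p read 4315 and 4046 units in block 8 but 1902 and 1949 units in block 26. On normal replicate 1 it read 7430 and 7217 units against 5283 and 5355 units. On the other 4 arrays the geometric means of the areas were closer for miR-221-3p, with ratios of 0.815 to 1.08. On high replicate 1 the duplicates in block 8 read 1295 and 670 units and those in block 26 820 and 906 units. In block 26 they also differed on normal replicate 2, at 2172 and 2880 units, and on normal replicate 3, at 2645 and 3335 units.

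For miR-222-3p the mean of the spots was higher in block 29 on 5 of 6 arrays. On normal replicate 1 the spots interleaved, at 1397 and 1483 units in block 11 and 1534 and 1466 units in block 29. High replicate 1 read 206 and 210 units in block 11 against 422 and 725 units in block 29. High replicate 2 read 501 and 443 units against 856 and 1021 units. High replicate 3 alone was brighter in block 11, at 908 and 916 units against 630 and 701 units. The choice of area could thus change the value of an array by more than 2-fold: the ratio of blocks 1 to 18 over 19 to 36 reached 2.17 for miR-221-3p on high replicate 3, and fell to 0.376 for miR-222-3p on high replicate 1.

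**Figure D3:**
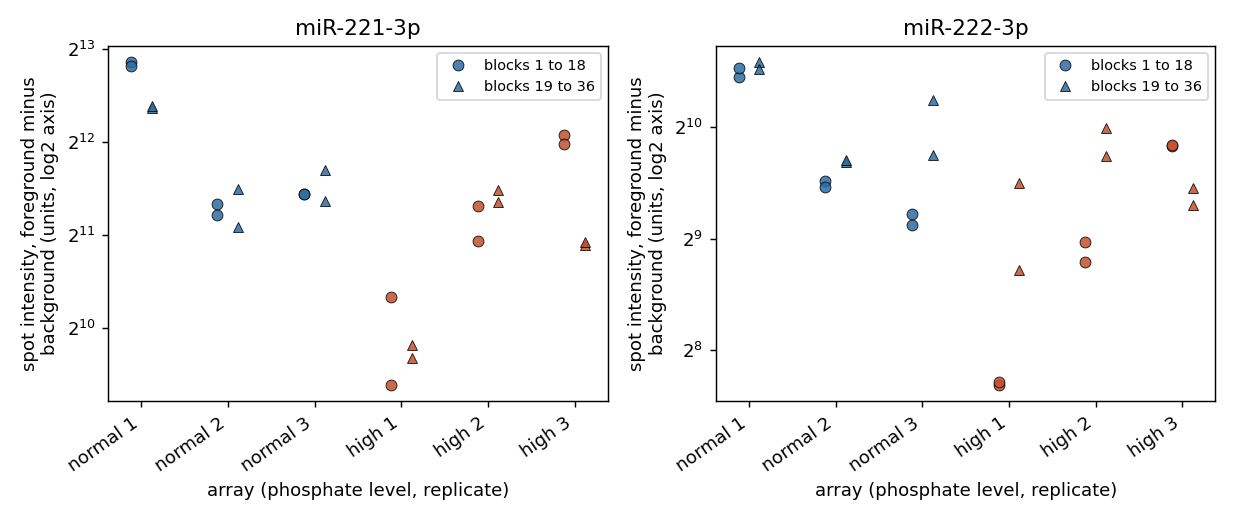
Intensity of every spot (y axis, log2 scale, foreground minus background) on each array (x axis; blue normal, orange high phosphate), with circles for blocks 1 to 18 and triangles for blocks 19 to 36. Duplicates differ most for miR-221-3p on high replicate 1 in blocks 1 to 18. For miR-221-3p, circles and triangles do not overlap on normal replicate 1 and high replicates 2 and 3. For miR-222-3p they do not overlap on normal replicates 2 and 3 and on all high replicates.

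The spread over spots did not overlap between the groups for the array as a whole. The coefficient of variation over the 4 spots, taken as the median of the 129 tested probes, was 5.84% to 11.2% on normal arrays and 16.2% to 30.3% on high arrays (exact permutation test, 2-sided, p = 0.1, the least that this design allows). For miR-221-3p it averaged 13.7% ± 4.10 at normal and 29.04% ± 13.7 at high phosphate (SD, n = 3 each; exact permutation test, 2-sided, p = 0.2). For miR-222-3p it averaged 16.6% ± 18.4 and 40.2% ± 22.1 (SD, n = 3 each; exact permutation test, 2-sided, p = 0.2). The groups overlapped for both members. Spots of an array are repeats of a measurement and not replicates of a condition.

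Nearby probes shared the difference between areas in some places. In blocks 11 and 29 of high replicate 1, the 6 other tested probes had a median log2 difference between areas of -1.10 (range -1.33 to -0.25), and miR-222-3p had -1.41. In blocks 8 and 26 of high replicate 3, the 5 other tested probes had a median of -0.84 (range -2.39 to 0.81), opposite in sign to the 1.12 of miR-221-3p. Over all 129 tested probes the median difference between areas was near 0 on every array, from -0.11 to -0.003.

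**Figure D4:**
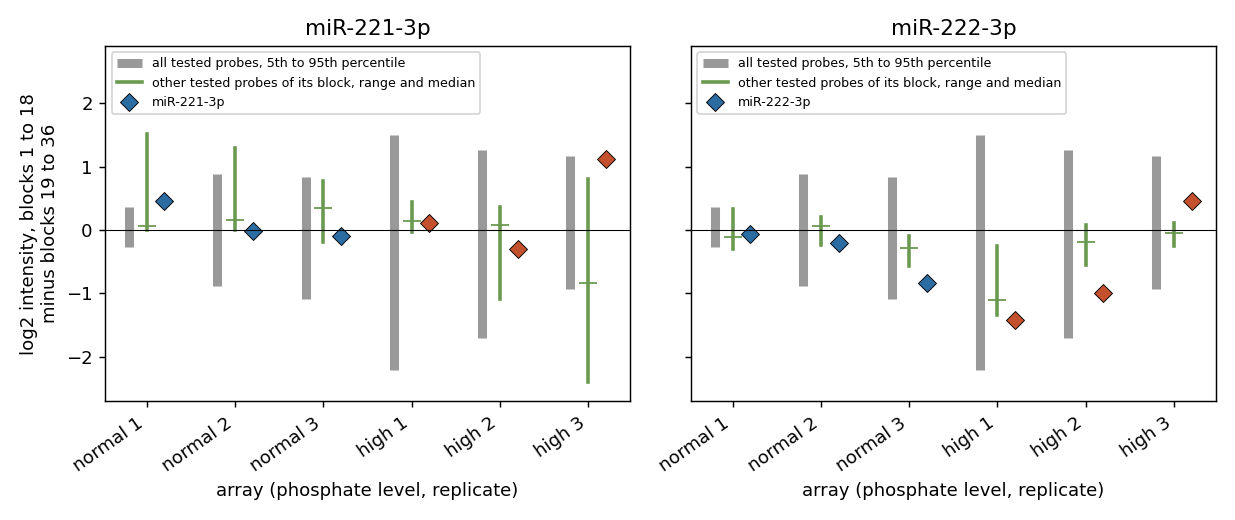
Log2 intensity of blocks 1 to 18 minus blocks 19 to 36 (y axis) on each array (x axis), with diamonds for the member (blue normal, orange high phosphate), grey bars for the 5th to 95th percentile of the 129 tested probes and green lines for the range and median of other tested probes in its block. miR-222-3p lies below its neighbours' range on normal replicate 3 and high replicates 1 and 2 and above it on high replicate 3, where miR-221-3p is also above its own neighbours.

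Each print area was therefore taken alone, a choice made after seeing the data. In blocks 1 to 18 the log2 difference between phosphate levels was -0.57 for miR-221-3p and -0.83 for miR-222-3p (exact permutation, 2-sided, p = 0.5 and 0.4). In blocks 19 to 36 it was -0.96 and -0.63 (exact permutation, 2-sided, p = 0.2 each). Both areas kept the sign, and the groups overlapped in all of these comparisons.

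The correlation within the pair was higher when both members were read in the same area. With both members read in blocks 1 to 18, r was 0.963 (exact permutation p = 0.00556, adjusted 0.05) and rho 0.829 (exact permutation p = 0.0583, adjusted 0.175). In blocks 19 to 36, r was 0.924 (exact permutation p = 0.0125, adjusted 0.05) and rho 1 (exact permutation p = 0.00278, adjusted 0.0333). Reading miR-221-3p in the first area and miR-222-3p in the second gave r = 0.65 (exact permutation p = 0.167, adjusted 0.25) and rho = 0.657 (exact permutation p = 0.175, adjusted 0.3). The reverse reading gave r = 0.855 (exact permutation p = 0.0611, adjusted 0.105) and rho = 0.486 (exact permutation p = 0.356, adjusted 0.427).

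Without normal replicate 1 and high replicate 1, the 4 remaining arrays kept r at 0.815 and 0.967 within an area but gave -0.768 and -0.921 between areas. Normal replicate 1 and high replicate 1 were the extremes of miR-221-3p in either area. The difference between within-area and between-area correlations was not tested.

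**Figure D5:**
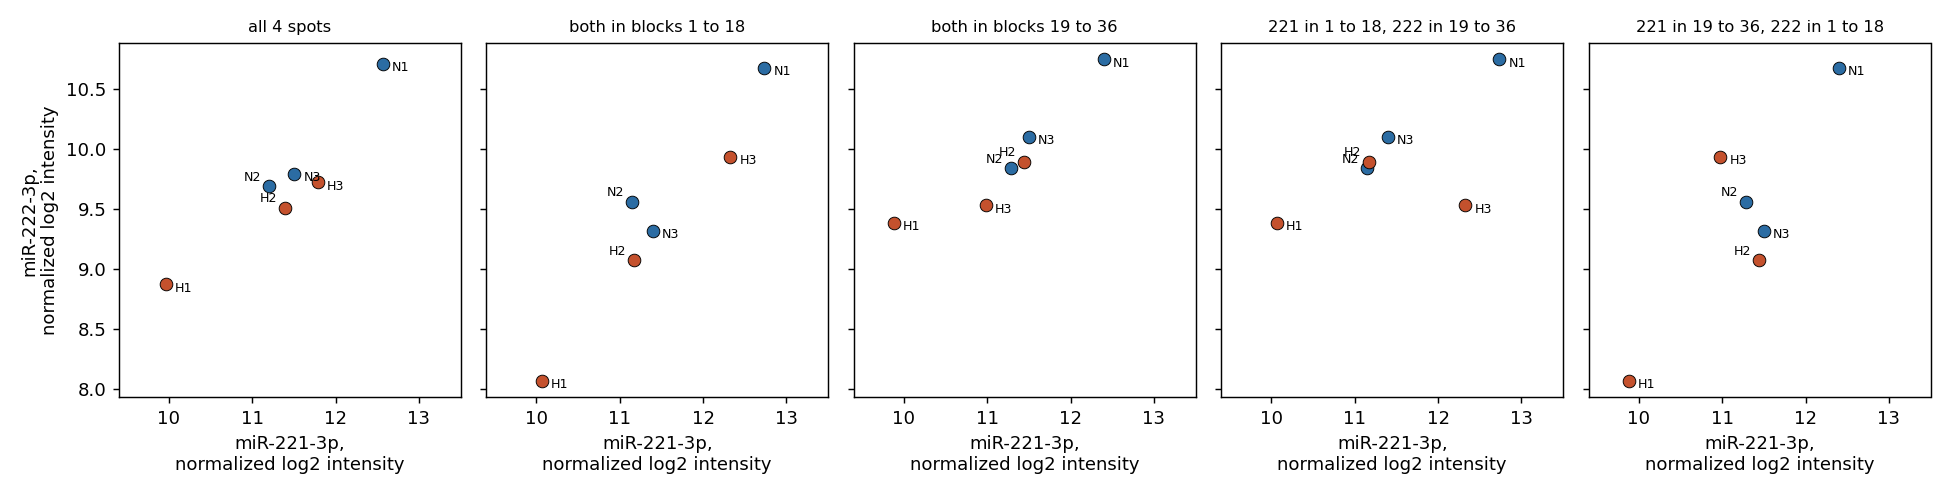
Normalized log2 intensity of miR-222-3p (y axis) against miR-221-3p (x axis) on the 6 arrays (N normal, blue; H high phosphate, orange; number, replicate), from all 4 spots, from each print area, and with the members read in different areas. N1 and H1 are the extremes of miR-221-3p in every panel, and H3 leaves the trend when the members are read in different areas.

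The other arms of the hairpins were near background. miR-221-5p, whose sequence is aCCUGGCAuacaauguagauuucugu with bases 2 to 8 in capitals (chrX:19146344-19146369, minus strand, RefSeq), measured 28.1 ± 5.70 units at normal and 33.8 ± 12.9 units at high phosphate (SD, n = 3 each). miR-222-5p measured 54.4 ± 19.4 and 70.3 ± 9.96 units (SD, n = 3 each). The remaining miRNA with the seed, miR-1928, measured 13.9 ± 4.63 and 18 ± 9.09 units (SD, n = 3 each). In the fit without a filter their log2 differences were -0.02 (SE 0.11), 0.07 (SE 0.10) and -0.04 (SE 0.07), with limma adjusted p-values of 0.993, 0.917 and 0.953. Their levels lay below or near the offset of 50 added in background correction, which shrinks log2 differences and their SEs. These values thus do not show that the levels were unchanged. In the authors' deposited table the folds were 1.19 for miR-221-5p and 1.26 for miR-222-5p, with false discovery rates of 0.847 and 0.794.

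Other vascular miRNAs were compared as lists. Of 26 miRNAs linked to endothelial cells, 12 besides miR-221-3p were tested, of which 9 averaged lower and 3 higher at high phosphate. Their median log2 difference was -0.15, against -0.02 over all 129 tested probes, of which 67 averaged lower and 62 higher. None of the 12 passed (0 of 12, lowest limma adjusted p = 0.828; 0 with an unadjusted p under 0.05). Their extremes were miR-92a-3p, known to restrain angiogenesis, at -0.38 (SE 0.21), miR-146a-5p, a brake on NF-kB signalling, at -0.34 (SE 0.33), miR-23b-3p at 0.05 (SE 0.18) and miR-126a-5p at 0.17 (SE 0.26).

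Of 27 miRNAs linked to smooth muscle phenotype or vascular calcification, 10 besides miR-221-3p were tested, 9 averaging lower and 1 higher. Their median log2 difference was -0.17, beside -0.02 over all 129 tested probes, 67 of them lower and 62 higher. Here too 0 of 10 passed (lowest limma adjusted p = 0.698; 0 with an unadjusted p under 0.05). The lowest were miR-1a-3p at -0.74 (SE 0.33) and miR-211-5p, which targets the bone regulator Runx2, at -0.40 (SE 0.26). The highest were miR-204-5p at -0.08 (SE 0.27) and miR-21a-5p at 0.36 (SE 0.25). The lists share members, so they are not independent.

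For the labelled cell type, the endothelial miR-126a-3p gave 8210 ± 1597 units at normal and 5474 ± 774 units at high phosphate (SD, n = 3 each), above the threshold on all arrays. Summed with miR-126a-5p, it spanned 16243 to 18150 units on normal arrays against 11924 to 17480 units on high arrays. Of 26 markers of other sources (smooth and striated muscle, red cells, liver, leukocytes, epithelium and neurons), 9 were bright enough to be tested. Those tested were 1 of 4 smooth muscle, 2 of 5 striated muscle, 3 of 3 red cell and 1 of 1 liver markers. They also took in 1 of 4 leukocyte, 1 of 6 epithelial and 0 of 3 neuronal markers. The summed red cell markers spanned 50024 to 66834 units on normal arrays against 37726 to 53541 units on high arrays, and the summed smooth muscle markers 43092 to 59215 against 33017 to 47093 units. Striated muscle markers summed to 44881 to 57976 against 30404 to 48333 units, and the liver marker read 12880 to 24575 against 8517 to 14182 units. Leukocyte markers summed to 4676 to 7615 against 4088 to 5915 units, and epithelial markers to 6936 to 9851 against 5553 to 7235 units. The summed neuronal markers spanned 1144 to 2347 against 1845 to 2771 units. These sums were taken before scaling between arrays. Levels of different probes were not compared with each other, so the sums do not settle which cells the vesicles came from. Their part in the levels of the pair was not tested. The Hy3 spots and spike controls were also dimmer on the high phosphate arrays. Dimmer arrays, fewer vesicles and less of a miRNA per vesicle therefore cannot be told apart in these sums.

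In the authors' deposited table, miR-221-3p had a fold of 0.547 for high over normal phosphate (p = 0.294) and miR-222-3p a fold of 0.594 (p = 0.245), each with a false discovery rate of 0.794. The authors' deposited normalized intensities of miR-221-3p, in multiples of a factor per array, were 19.4, 7.24 and 8.06 on the normal arrays and 2.71, 7.51 and 8.76 on the high arrays. Those of miR-222-3p were 4.56, 2.27 and 2.11, and 0.991, 1.97 and 2.35. The order of extremes, normal replicate 1 above and high replicate 1 below all others, was the same as above.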

How the data were processed

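The authors deposited spot intensities (foreground, and foreground minus background) of a 1-colour Hy3 array for 15840 spots, per the file headers, and normalized probe intensities. The normalized values equalled the spot median over a factor per array. Their deposited comparison holds, per the file headers, a fold (ratio), its p-value and its rate of false discovery for each probe. A further 24 columns of that table were not used. The sources used here name neither scanner nor image software. Signals were corrected with normexp (offset 50, limma 3.58.1, R 4.3.3), averaged over spots, quantile normalized over mouse and viral miRNA probes and taken to log2. Probes above the 95th percentile of 57 viral probes on at least 3 of 6 arrays were fitted with limma (2-sided, Benjamini-Hochberg, threshold 0.05). miR-222-3p, which missed that filter, received an exact permutation test and a fit without it instead. The fit was tested on simulated data. No spot of either member was saturated (0 spots). The number of arrays limits precision. The rule for named miRNAs took the pair, the other arms, miRNAs with the seed, the extremes of each list and the 5 most alike probes with the most opposite. Members, lists and tests were chosen with earlier results of these data known. Alternatives covered background, normalization, filter, spots, variance model, array weights, replicate number and single arrays.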

Additional observations from a re-analysis of the deposited data

How the results depend on the processing

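The log2 difference of miR-221-3p was negative and did not pass under all 22 alternatives (limma adjusted p from 0.468 to 0.973), from -1.10 to -0.17 when single arrays were left out, and -0.41 with array weights. That of miR-222-3p was negative under all 18, but moved to -0.00084 with scaling to the Hy3 spots and -0.076 with scaling to the spike controls; single arrays gave -0.88 to -0.37. The count of passing probes was 0 except for 7 with scaling to the Hy3 spots. The change of miR-221-3p over miR-222-3p turned to 0.023 with foreground minus background, 0.0027 with normexp offset 16, 0.063 with the median of spots and 0.25 with blocks 1 to 18, and ran from -0.23 to 0.28 without single arrays, among them 0.07 and 0.002 without normal replicates 1 and 3. Their correlation ran from 0.924 to 0.973 without single arrays, and with 5 arrays its exact permutation p passed 0.05 (up to 0.075). The cause was not tested. With the replicate block, miR-221-3p stayed at -0.71 (limma adjusted p = 0.863) and 0 probes passed. Deviations of same-numbered arrays correlated at 0.22, 0.03 and -0.18 for replicates 1, 2 and 3, and only replicate 1 exceeded the limit of 0.1 set for pairing. These values cannot show whether same-numbered arrays were handled as pairs. Requiring the threshold on all 6 arrays removed miR-221-3p, and filter, variance model, weights and block do not enter the correlation or the change within the pair. miR-222-3p was under the threshold on all 6 arrays.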
